A study of Homo sapiens with 2 samples.

Results

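Small nucleolar RNAs (snoRNAs) and small Cajal body RNAs (scaRNAs) were compared between HCT116 cells that carried HOXA5 short RNA and their mock-transfected counterparts. They were taken as the array probes whose RefSeq accession belongs to a gene with a symbol starting with SNORD (box C/D), SNORA (box H/ACA) or SCARNA (Cajal body). The array held 321 such probes for 315 genes, out of 50599 probes in all. Of these, 201 probes for 197 genes were well above background on at least 1 array and 187 probes for 183 genes on both, and for the other 120 neither array passed this limit.

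HCT116 is a widely used cell line from a human colon carcinoma. Cells with the genotype label control carried a pEB vector without HOXA5 short RNA (mock). Cells labeled as overexpressing HOXA5 short RNA carried the same vector with this non-coding transcript, which skips the first exon of HOXA5. Both were kept as drug-resistant populations under blasticidin for 2 weeks, and Cy3-labeled cRNA from the total RNA of each was run on 1 Agilent SurePrint G3 human array per group. Each group was therefore 1 cell population and 1 RNA extract, so every difference given here belongs to 1 pair of arrays and none was tested.

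Box C/D RNAs base-pair with ribosomal RNA (rRNA) or spliceosomal RNA and direct the methyltransferase fibrillarin to methylate the ribose of a chosen nucleotide. Box H/ACA RNAs work the same way with the pseudouridine synthase dyskerin, and a few members of each class, such as U3 and U17, are needed for cleavage of the rRNA precursor instead. Small Cajal body RNAs carry the same boxes but are retained in Cajal bodies, where they guide modification of spliceosomal RNAs. In human cells nearly all of them are cut out of introns of other genes, called host genes, and are protected from decay by their core proteins.

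A box H/ACA RNA ends with the letters ACA placed 3 bases before its 3′ end. Some of these RNAs are also annotated as miRNA hairpins, which allows this hallmark to be shown. The RefSeq hairpins below (GRCh38.p14) overlap 2 Cajal body and 2 box H/ACA members measured here, and the capitals mark the ACA box that a search found at its place in the snoRNA or scaRNA.
SCARNA16, hairpin MIR6516, chr17:77089417-77089497, plus strand: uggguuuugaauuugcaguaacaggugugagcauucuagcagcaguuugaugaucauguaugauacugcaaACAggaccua
SCARNA3, hairpin MIR1843, chr1:175968370-175968479, minus strand: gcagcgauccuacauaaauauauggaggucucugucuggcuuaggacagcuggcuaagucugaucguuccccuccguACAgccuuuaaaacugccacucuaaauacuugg
SNORA36A, hairpin MIR664B, chrX:154768596-154768656, plus strand: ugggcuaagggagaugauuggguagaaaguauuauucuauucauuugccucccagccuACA
SNORA84, hairpin MIR3651, chr9:92292458-92292547, minus strand: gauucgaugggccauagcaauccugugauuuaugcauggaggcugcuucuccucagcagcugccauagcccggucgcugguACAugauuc

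Signals are the processed intensities of the scanner software, with the error that the software gives for the spot. Differences are log2 of HOXA5 short minus log2 of mock after each array was scaled to its 75th percentile over all non-control probes, which was 35.6 in mock and 44.0 with HOXA5 short. In mock 36.4% of probes were well above background and with HOXA5 short 37.5%, and 17938 probes passed on both arrays. The SD of the difference for a single spot, from 593 probes printed several times on each array, was 0.26, and it ranged from 0.32 for mock signals under 20 to 0.24 above 200. It holds no spread between cultures. The 7 detected RNA spike-ins of the labeling kit had a median difference of -0.47 (range -0.66 to -0.04), so scaling to the spike-ins would raise every difference by 0.47. For this reason the small RNAs are described relative to the other probes, which no scaling of a whole array changes. Of 7 epithelial and intestinal markers, 6 were well above background on both arrays, EPCAM, CDH1, KRT8, KRT18, KRT19 and CDX2. The brush border gene VIL1 was not (signals 1.88 and 2.04).

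HOXA5 was examined first. Its single probe read 39.4 (error 4.32) in mock and 346 (error 34.6) with HOXA5 short, which is 7.11-fold more (log2 difference 2.83), and 0 of its 29 well-measured neighbors on the array had changed 2-fold. The files do not state whether this probe separates HOXA5 short RNA from HOXA5 mRNA.

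As a family, the snoRNA and scaRNA probes read lower relative to the other probes on the HOXA5 short array. The median difference of the 187 compared probes was -0.29 (quartiles -0.56 and -0.10), against -0.02 over all 17938 compared probes (quartiles -0.16 and 0.14), so the family lay 0.27 below on the log2 scale (-0.27). Of the 187 probes, 158 (84.5%) were below the median of all probes. With scaling to the spike-ins the 2 medians were 0.18 and 0.45, and the distance between them was the same. Scaling a whole array shifts every probe alike, so it cannot change this distance, whereas it did change the sign of the family's own median.

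The share of members past a fixed fold shows the same displacement. At 1.5-fold lower there were 42 of 187 members (22.5%), where 2.32% of all compared probes were that low. At 1.5-fold higher there was 1 member (0.535%), where 3.95% of all probes were that high. At 2-fold, 7 members (3.74%) were lower against 0.318% of all probes, and 1 member (0.535%) was higher against 1.06%. Below 0 there were 161 members (86.1%), against 53.6% of all probes. With spike-in scaling, 2.14% of members and 0.251% of all probes were 1.5-fold lower, and 7.49% and 27.3% were 1.5-fold higher. Against the measurement error, 101 members (54.0%) were lower by more than the single-spot SD, against 14.7% of all probes, and 8 (4.28%) were higher by more than it, against 14.4%. Since RNA was taken from whole cultures, fewer cells with a given RNA and less of it per cell cannot be told apart. Nor do the values separate a cut-out small RNA from uncut host RNA that still holds its sequence. How fully RNAs this short were recovered and labeled for each array was not measured, so the values are probe readings.

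**Figure D1:**
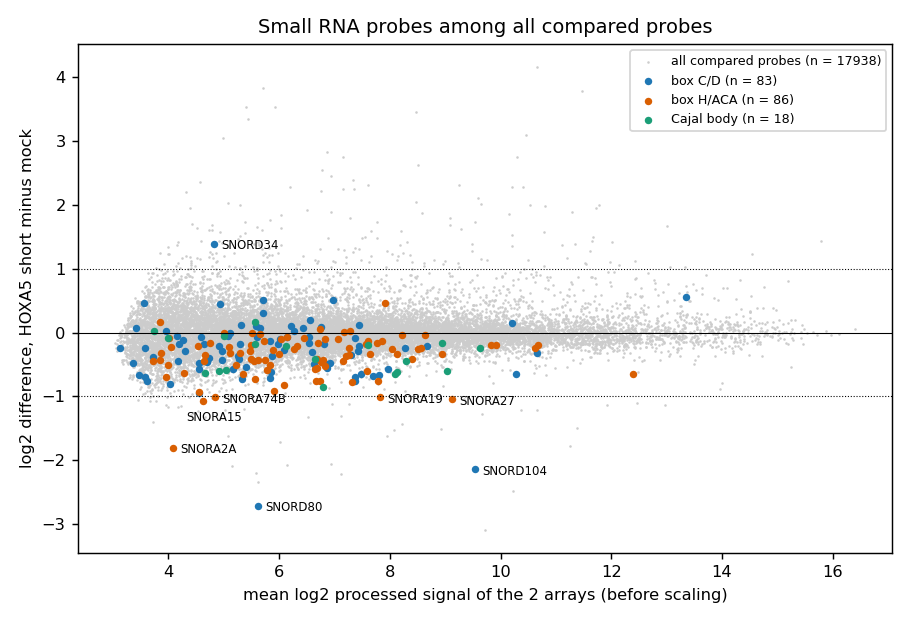
Log2 difference (HOXA5 short minus mock, scaled to the 75th percentile) against the mean log2 processed signal of the 2 arrays, 1 point per probe, gray for all 17938 compared probes and colored for 83 box C/D, 86 box H/ACA and 18 Cajal body probes. Dotted lines mark 2-fold, the named points are the 8 members past it, and the colored points lie mainly under the middle of the gray ones at every signal (with spike-in scaling all points move up together by 0.47).

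The displacement was present at every brightness. For mock signals under 20 the members' median was -0.25 (27 probes) and that of all probes 0.02. From 20 to 50 the members had -0.32 (53 probes) and all probes -0.03, and from 50 to 200 they had -0.28 (70 probes) against -0.03. Above 200 the medians were -0.33 (37 probes) and -0.02. Thus dim and bright members had about the same median. Most members (161) came from the manufacturer's probe series named A_21, in which the members' median was -0.28 and that of the 1408 other probes -0.01.

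Box C/D RNAs had 3 members far from the rest, all in the uneven array zones described further on. Of 196 probes, 92 were detected on at least 1 array (46.9%) and 83 on both, and the median difference of these 83 was -0.25 (SD over probes 0.51, or 0.34 without the uneven zones), with 64 below 0 (77.1%). At 1.5-fold lower there were 16 (19.3%), at 2-fold lower 2 and at 2-fold higher 1. Box H/ACA RNAs were detected more often, in 91 of 102 probes (89.2%), and 86 were compared. Their median was -0.33 (SD 0.33), with 81 below 0 (94.2%), 19 that were 1.5-fold lower (22.1%), 5 that were 2-fold lower and none that was 1.5-fold higher. The 18 detected of 23 Cajal body probes (78.3%) had a median of -0.32 (SD 0.28), with 16 below 0 (88.9%) and none past 2-fold. At 1.5-fold lower there were 7 (38.9%), which included both probes of SCARNA16. All of these but SCARNA18 were close to that limit, from -0.65 to -0.59. Over all compared probes 53.6% were below 0, 2.32% were 1.5-fold lower and 0.318% were 2-fold lower. With spike-in scaling the 3 medians were 0.22, 0.14 and 0.14. The classes also differ in length, with a median of 76 bases for box C/D, 134 for box H/ACA and 187 for Cajal body RNAs. Members under 100 bases had a median difference of -0.21 (71 probes) and longer ones -0.35 (116 probes).

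**Figure D2:**
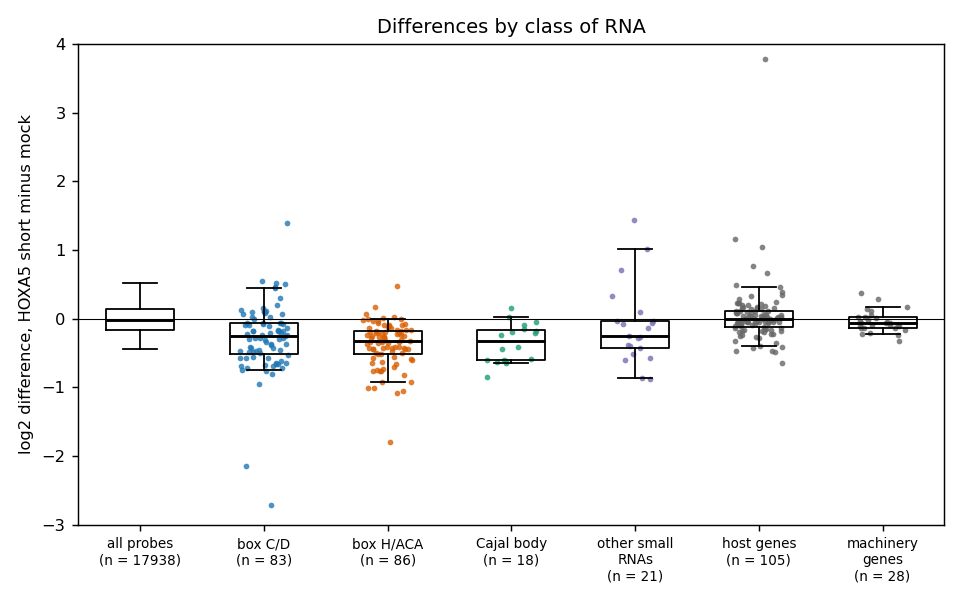
Log2 difference (HOXA5 short minus mock) for all compared probes, the 3 classes of small RNA, other small non-coding RNAs, host genes and genes of the small RNA machinery. Points are probes (genes in the last 2 groups), boxes the quartiles with the median, and whiskers the 5th and 95th percentiles. The medians of the 3 classes lie between -0.33 and -0.25, and that of the other small non-coding RNAs is at a like level (-0.26). Those of all probes, hosts and machinery lie between -0.07 and -0.01 (with spike-in scaling all move up by 0.47).

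Of the 8 members past 2-fold, 7 were lower on the HOXA5 short array, and 5 of these were box H/ACA RNAs. SNORA2A, 1 of 3 related H/ACA RNAs in the gene KANSL2, had a signal of 28.7 (error 3.28) in mock and 10.2 (error 2.04) with HOXA5 short, a difference of -1.80. SNORA15, in the chaperonin subunit gene CCT6A, went from 32.1 (error 3.60) to 18.8 (error 2.58), a difference of -1.08. Both were dim probes, while the next was bright. SNORA27, in the ribosomal protein gene RPL21, had 725 (error 72.5) in mock and 434 (error 43.4) with HOXA5 short, a difference of -1.05. SNORA74B, a form of U19 RNA, had 36.8 (error 4.06) and 22.4 (error 2.94), a difference of -1.02. SNORA19, in the translation factor gene EIF3A, had 290.4 (error 29.1) and 178 (error 17.9), a difference of -1.01. None of these 5 had a 2-fold changed spot among its neighbors (0 of 29, 38, 29, 36 and 36 well-measured spots). SNORA15, SNORA27, SNORA74B and SNORA19 lay close to the threshold. With normexp background correction none of the 5 reached 2-fold, and the differences were -0.41 for SNORA2A, -0.38 for SNORA15, -0.42 for SNORA74B, -0.80 for SNORA27 and -0.69 for SNORA19. This correction adds an offset of 50 to every signal, more than the signals of SNORA2A, SNORA15 and SNORA74B. It therefore cannot decide whether these 3 dim probes pass 2-fold.

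The box C/D members past 2-fold had changed spots around them. Neighbors were counted as the well-measured spots within 4 rows and 4 columns, and a zone was called uneven where at least 10% of them differed 2-fold. SNORD80, from an intron of the non-coding RNA GAS5, had 113 (error 11.46) in mock and 21.2 (error 2.99) with HOXA5 short, a difference of -2.72. Of its 16 neighbors 9 differed 2-fold, and their median difference was -1.07. SNORD104, from SNHG25, had 1405 (error 141) and 394 (error 39.4), a difference of -2.14, with 5 of 16 neighbors changed and a neighbor median of -0.02. Within 3 rows and 3 columns its zone was not uneven. SNORD34, from the ribosomal protein gene RPL13A, was the only member past 2-fold in the higher direction, with 15.8 (error 2.47) and 51.1 (error 5.51), a difference of 1.39. Of its 26 neighbors 11 differed 2-fold, with a median of 0.83. With the local median subtracted, SNORD34 was at 0.56 and no longer 2-fold, SNORD80 was at -1.65 and SNORD104 at -2.12. With normexp, whose offset of 50 shrinks the differences of dim spots such as SNORD34, they were at 0.43, -1.16 and -1.81.

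Just outside the threshold were SNORD21 (-0.95), SNORA79 (-0.93) and SNORA74A (-0.92) on the lower side. SNORA74A, the other form of U19, was also in an uneven zone, with 3 of 25 neighbors changed. On the higher side the next members were a probe of SNORD3B-1 (0.56), SNORD49A (0.52) and SNORD38A (0.51).

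For the family as a whole, position on the array made little difference. Only 4 of the 187 compared members (2.14%) were in uneven zones, against 2.59% of all compared probes printed once, and 161 had no changed neighbor at all. Outside the zones the median of the 183 members was -0.29 and that of all probes printed once -0.02. There 39 members (21.3%) were 1.5-fold lower, 5 (2.73%) were 2-fold lower and none was 2-fold higher. The spots around the members had a median difference of -0.03, and 158 members were below the median of their own neighbors. With that local median subtracted, the members' median was -0.26.

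**Figure D3:**
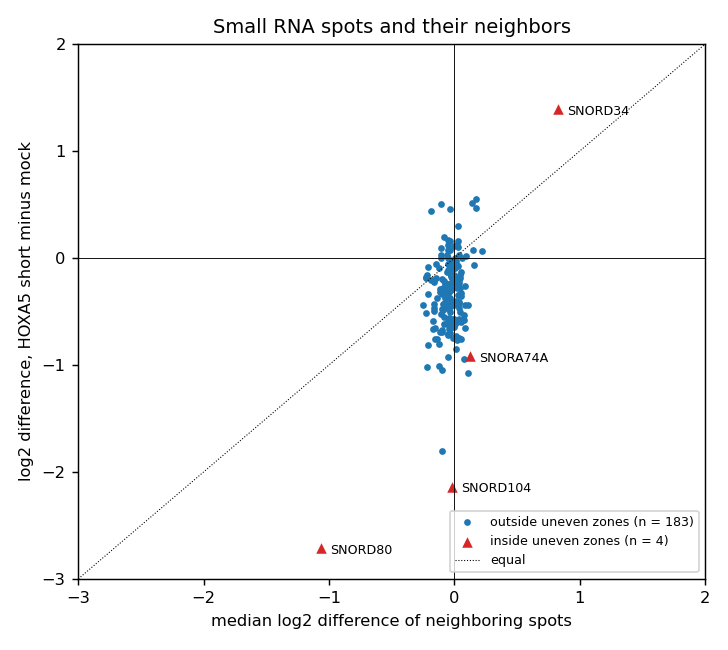
Log2 difference of each of the 187 members (vertical) against the median log2 difference of the well-measured spots within 4 rows and 4 columns (horizontal), with the 4 members in uneven zones as red triangles and a dotted line where both are equal. Most of the 183 other members lie below the line, and SNORD80 and SNORD34 are the ones whose neighbors moved far in their own direction.

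The brightest member probes were mostly below the other probes as well. SNORA16A had 6030.4 (error 603) in mock and 4762 (error 476) with HOXA5 short, a difference of -0.64. SNORD26, from SNHG1, had 1405 (error 141) and 1107 (error 111), a difference of -0.65. SNORA57, SNORA67 and SNORA61 were bright as well, with differences of -0.20, -0.24 and -0.19. SNORD86, from an intron of NOP56, had 1002 (error 100.2) and 1381 (error 138), a difference of 0.16, and was the only one of these 6 above the median of all probes. The probes of U3 were also among the brightest, and SNORD104, described above, was so in mock only.

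U3 is a box C/D RNA needed for the early cleavages of the rRNA precursor. Its gene SNORD3B-1 had 2 probes that disagreed. One read 7778 (error 778) in mock and 14112 (error 1411) with HOXA5 short, a difference of 0.56, and the other 1625 (error 163) and 1616 (error 162), a difference of -0.31. U3 has several near-identical gene copies, so the level of SNORD3B-1 is uncertain, and the probes give no common direction. Other RNAs of rRNA precursor cleavage were U22 and U17. SNORD22 (U22) had 128 (error 12.9) and 113 (error 11.48), a difference of -0.48. SNORA73A (U17a) had a difference of -0.13, and the 2 probes of SNORA73B (U17b) had -0.34 and -0.25. The 6 probes of this group had a median of -0.28, close to that of the family.

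Where a gene other than U3 had 2 detected probes, they gave similar values. SCARNA16 had -0.62 and -0.65, and SNORA36A, the RNA whose 3′ hairpin with the ACA box is shown above, had -0.32 and -0.23. In those genes the probes were within the single-spot SD of each other. SNORA84, also shown above, had 64.6 (error 6.74) in mock and 63.4 (error 6.67) with HOXA5 short, a difference of -0.33. SCARNA3 was dim, with 12.0 (error 1.99) and 15.1 (error 2.30), and its difference was 0.03.

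The Cajal body RNAs had a narrow range, from -0.85 to 0.16. SCARNA18 was the lowest, with 135 (error 13.6) in mock and 92.2 (error 9.45) with HOXA5 short. SCARNA5, SCARNA8, SCARNA13 and SCARNA7 were next to SCARNA16, with differences of -0.64, -0.60, -0.60 and -0.59. SCARNA13 was the brightest of them, with 582 (error 58.2) and 475 (error 47.6). SCARNA2, a guide for U2 spliceosomal RNA, was at the upper end with 40.1 (error 4.43) and 55.3 (error 5.89). These Cajal body RNAs, SCARNA16 and SCARNA3 apart, were picked after their values were seen.

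Of the 120 probes well above background on neither array, 67 belonged to a single kind of RNA. The imprinted clusters, which hold the repeated box C/D RNAs SNORD113 and SNORD114 in one locus and SNORD115 and SNORD116 in another, are known for expression in the nervous system. Their 67 probes stood for 65 genes, and none was well above background on either array. The highest signal among them was 4.81 in mock and 5.92 with HOXA5 short. Of the 129 other box C/D probes, 71.3% were detected on at least 1 array. Repeated members of these clusters and other close copies can share a probe's signal.

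There were 9 members detected in mock only and 5 detected with HOXA5 short only. Over all probes the lean was the other way, with 18422 well above background in mock, 18953 with HOXA5 short and 17938 on both. For members detected on 1 array only the fold is a bound. The bound compares the bright value with the lowest signal well above background on the other array, or the dim probe's own signal if that was higher, both scaled. SNORA38B was the only one whose bound reached 2-fold. It had 16.97 in mock and 6.35 with HOXA5 short, at least 2.62-fold lower. The bounds of the other 8 RNAs seen in mock only were between 1.19 and 1.68, and those of the 5 seen with HOXA5 short only between 1.09 and 1.26. All 5 of the latter were box C/D RNAs, among them SNORD77 of GAS5, with 7.42 in mock and 12.1 with HOXA5 short.

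The host genes lay near the median of all probes, above the RNAs inside them. All but 5 of the kept member probes lay within a host gene. There were 124 hosts, 95 of them protein-coding and 27 long non-coding, and 105 hosts were compared together with 168 of their members. A host here is the shortest gene of RefSeq GRCh38.p14 whose span holds the member, without regard to strand, and 24 members lay in several genes. The median host difference was -0.01, the median of the members' medians was -0.35, and the members were lower than their host in 92 of 105 hosts, by a median of 0.34 (members minus host -0.34). Among hosts of members held by a single gene this was so in 80 of 93. With spike-in scaling the median host difference was 0.46, and the distance from members to hosts was necessarily the same.

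Across the 105 hosts, the correlation of the members' median with the host's value was low (Pearson's r = 0.02, Spearman's rho = 0.11). It is given as a description, since hosts on the same 2 arrays are not independent replicates. Many host differences were smaller than the single-spot SD of 0.26, and r includes the outlying hosts named next. The low values therefore cannot show whether members follow their hosts. Only 3 hosts were 2-fold higher and none 2-fold lower, where 77 of all 11994 named genes compared were higher and 31 lower. Each of the 3 hosts rested on a single probe. For SLC25A3 the only probe (3.78) was in an uneven zone with 7 of 16 neighbors changed. RPL17 (mean 1.16) had 1 of 4 probes at 4.16, in a zone with 4 of 27 neighbors changed, and its other probes were between 0.05 and 0.25. TCP1 (mean 1.04) had 1 probe at 2.00 and the other at 0.08. Their members SNORA53, SNORD58A with SNORD58C, and SNORA20 had medians of -0.44, -0.33 and -0.70.

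Non-coding hosts, whose exons encode no protein and whose introns hold snoRNAs, were alike in this. Of 23 such genes, 21 were compared, with a median of -0.05, 13 below 0 and none past 2-fold. Over all 11994 named genes compared, 6545 were below 0, 77 were 2-fold higher and 31 lower. The 18 that had compared members also had a median of -0.05, and the members' medians had a median of -0.36. SNHG1 held 8 compared members from SNORD22 to SNORD31, which ran from -0.65 (SNORD26) to 0.44 (SNORD31) with a host at -0.15. GAS5 had a signal of 7910 in mock and 9892 with HOXA5 short, a difference of 0.02. Of its RNAs, SNORD76 had -0.55, SNORD44 -0.11, SNORD74 -0.07 and SNORD47 0.12, besides SNORD80 in its uneven zone. SNHG12 was at -0.04 and held SNORA44 (-0.82), SNORA16A (-0.64), SNORA61 (-0.19) and SNORD99 (0.19). SNHG16 was higher, at 0.66, while its compared members SNORD1A and SNORD1C had -0.24 and -0.58. ZFAS1 was at -0.18, with SNORD12C at -0.76, SNORD12B at -0.46 and SNORD12 at -0.07.

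Among coding hosts, TAF1D, a subunit of the polymerase I factor SL1, was at 0.20, and its 8 members ran from -0.56 (SNORA8) to -0.07 (SNORD6), all below the host. EIF4A2, a translation initiation helicase, was at 0.17 with SNORA81, SNORA4 and SNORA63 at -0.73, -0.65 and -0.44. EIF4A1, the related helicase, was at 0.09 with SNORD10, SNORA48 and SNORA67 at -0.67, -0.41 and -0.24. NOP56, itself a box C/D core protein, was at 0.28 with SNORA51 (-0.51), SNORD110 (-0.50), SNORD56 (0.07) and SNORD86 (0.16), all below it. KANSL2 was at -0.25, and SNORA2B and SNORA2C in it had -0.77 and -0.60, both lower than the host as SNORA2A was. Of the ribosomal protein hosts, RPL23A (0.39), RPL3 (0.32) and RPS12 (0.46) each had a members' median at least 0.53 lower. The distance was smaller in RPL4 (0.004) and RPL7A (0.006), with members minus host at -0.35 and -0.20. RPL13A (0.03) differed, because SNORD35A and SNORD32A at 0.08 and 0.11 were slightly above it and SNORD33 at -0.71 was below.

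**Figure D4:**
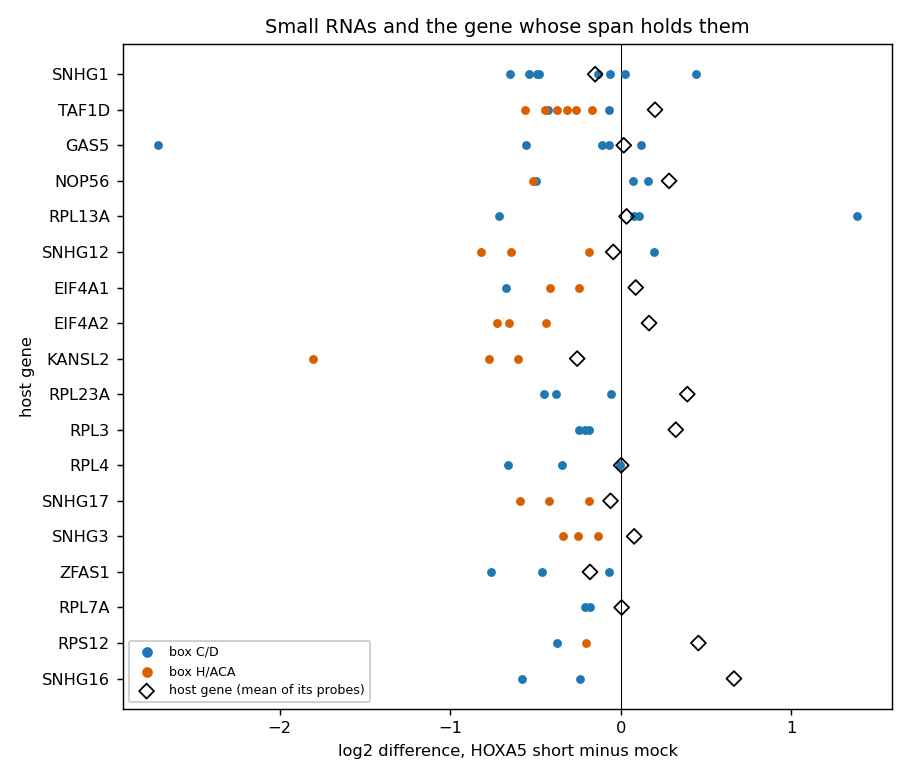
Log2 difference (HOXA5 short minus mock) of the compared small RNAs inside 18 host genes with at least 3 kept members, 1 row per host, colored by class, with the host gene as an open diamond (mean of its probes). In most rows the colored points lie left of the diamond, SNHG1, GAS5, RPL13A, SNHG12 and ZFAS1 have points on both sides, and the far points are SNORD80 (GAS5), SNORA2A (KANSL2) and SNORD34 (RPL13A).

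RNAs of the same host spread about as widely as all of them together. Over the 32 hosts with at least 2 compared members (96 members), the pooled SD within hosts was 0.46, and the SD over all of those members was 0.46 as well. Outside uneven zones the values were 0.32 and 0.35 over 94 members.

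The proteins that build these particles had values close to the other genes. All 8 core protein genes were compared, with a median of -0.08 and 7 below 0. For the box C/D core the differences were -0.20 for the methyltransferase fibrillarin (FBL), -0.17 for NOP58, -0.09 for SNU13 and 0.28 for NOP56, the last over 3 probes from -0.04 to 0.50. The box H/ACA core was between -0.10 and -0.02, with the pseudouridine synthase dyskerin (DKC1) at -0.04, NHP2 at -0.07, NOP10 at -0.10 and GAR1 at -0.02. Of 15 genes for assembly and Cajal bodies, 14 were compared, with a median of -0.01 and 7 below 0. They ran from -0.22 (coilin, COIL, the Cajal body scaffold) to 0.38 (ZNHIT6, an assembly factor of box C/D particles), and WRAP53, which binds Cajal body RNAs, was at 0.05. Of 8 genes for trimming and decay, 6 were compared, with a median of -0.14 and 5 below 0. The lowest was the exosome helicase MTREX at -0.33, and the 5′ to 3′ exonuclease XRN2 was at 0.14. None of these 28 genes was 2-fold changed, where 77 of the 11994 named genes compared were 2-fold higher and 31 lower. With shares this low, finding none among 28 says little. The median of the 28 was -0.07 (0.40 with spike-in scaling), against -0.02 over the named genes, of which 6545 were below 0.

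Other small non-coding RNAs had a median at a like level but spread widely. The array had 21 of them that were compared, mainly spliceosomal, vault, RNase P, RNase MRP, 7SL, 7SK and telomerase RNAs and the small NF90-associated RNAs, and they were selected after the data were seen. Their median was -0.26, with 16 of 21 below 0 (76.2%), and outside uneven zones it was -0.26 over 19 RNAs. They ran from -0.88 (SNAR-G2) to 1.44 (SNAR-A3, with 9 of 24 neighbors changed), with an SD of 0.58. The next highest were VTRNA1-2 (1.01, 4 of 21 neighbors changed) and SNAR-D (0.71, 0 of 28). The minor spliceosomal RNAs RNU12, RNU11, RNU4ATAC and RNU6ATAC had -0.87, -0.58, -0.14 and 0.34, and the signal recognition particle RNA RN7SL1 had -0.26. RN7SK (-0.07), RMRP (-0.08) and TERC, which carries an H/ACA domain (-0.04), were near the median of all probes. By contrast, long non-coding RNAs had a median of -0.05 (678 probes) and protein-coding genes -0.02 (14105 probes). The part of RNA length in these values was not tested.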

How the data were processed

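Total RNA of HCT116 cells (mock and HOXA5 short, 1 array each, grouped by the genotype label) was measured on 1-color Agilent arrays of the same slide. Per the file headers, spots were quantified by Feature Extraction 11.5.1.1, and the deposited intensity is the background-corrected processed signal on a linear scale. A second deposited table, of log2 values that the authors centered on each probe, served as an alternative. Its scale is log2 and the difference of its columns runs as in the scanner files, but the scaling behind it is not stated. Each array held 62976 spots, none saturated. Precision is limited by there being 1 array per group.

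From the signals, log2 values were formed, spots of a probe averaged without outlier flags, and the 75th percentile of each array subtracted (Python 3.11.15, numpy 2.4.6, pandas 2.3.3). A probe was compared when well above background on both arrays. Accessions were named through RefSeq GRCh38.p14 (59.3% of probes), and the array was designed on hg19. The scripts were tested on simulated data. With 1 array per group no test was made.

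The alternatives included median scaling, the percentile of detected probes, quantile normalization, normexp background correction (limma 3.58.1, offset 50), the deposited values, no or a stricter filter, removal of uneven zones, the local median, and folds of 1.5 and 3. Spike-in scaling, the 1.5-fold lower count, the distances from all probes and from hosts, and the markers were added after seeing the data. The members and lists were chosen with earlier results of these data known. Members were named if past 2-fold or just outside it, by a bound of 2-fold, among the 8 brightest, with 2 probes, or as said in the text. Those in a list or in a host with at least 3 kept members were named in part. Host spans were matched without strand, which the gene table used does not give. The values of 1 host gene are not reported here. The members were not in the promoter table used here, so a planned count of box C letters was not made.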

Additional observations from a re-analysis of the deposited data

How the results depend on the processing

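With 1 array per group, the alternatives show only how the values of this pair depend on the processing. The median of the members less that of all probes was -0.27. It ran from -0.29 (deposited values) to -0.15 (normexp), and to -0.06 with no filter. Without a filter all 321 member probes enter in place of 187, and 120 of them were well above background on neither array. The members' median less that of the host was -0.34 and ran from -0.36 to -0.22. The shares of members below the median of all probes ran from 68.2% (no filter) to 88.8% (normexp). Spike-in scaling, chosen after seeing the data, turned the sign of the medians, to 0.18 for the family, 0.22 for box C/D, 0.14 for box H/ACA, 0.14 for Cajal body RNAs, 0.46 for hosts and 0.40 for machinery genes, and HOXA5 was then 3.30. With normexp, HOXA5 was 1.91. The offset of 50 in normexp shrinks the differences of dim probes, so its values and its counts at a fixed fold are partly set by that offset.

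The counts at a fixed fold depended on the setting. In place of 42 members 1.5-fold lower, there were, each counted anew, 25 with median scaling, 4 with normexp, 68 with no filter, 16 with signals above the median, and 4 with spike-in scaling. In place of 7 members 2-fold lower there were 3 with median scaling, 2 with normexp, 24 with no filter, 3 with signals above the median, 42 at 1.5-fold, 3 at 3-fold and 3 with spike-in scaling. In place of 1 member 2-fold higher there were 0 with normexp, 2 with the deposited values, 6 with no filter, 0 with signals above the median, 0 without uneven zones, 0 with the local median subtracted, 0 at 3-fold and 2 with spike-in scaling. A window of 3 rows and columns put 4 members in uneven zones, of which 2 (SNORD34 and SNORD80) were in them with both windows. SNORD104 and SNORA74A left them and SNORD12B and SNORD49A entered. The causes were not tested. Dim signals limit what is detected, so only 187 of 321 member probes were compared, and 120 were well above background on neither array. No paired analysis was possible because each group has 1 array.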
